A study of Arabidopsis thaliana with 7 samples.

Results

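E2FA and RBR (RETINOBLASTOMA-RELATED) were compared over 4 of the 7 ChIP-seq peak lists of the series, 2 for E2FA-GFP and 2 for RBR-GFP. Each fusion was driven by the gene's own promoter in Arabidopsis thaliana Col0 (genotypes pE2FA-E2FA-GFP and pRBR-RBR-GFP), and chromatin of untreated whole seedlings, 12 days old by the sample labels, was precipitated with an antibody against GFP (abcam, ab290). The paper's methods give an older age for the seedlings than the labels do. Replicate 1 was deposited as broad peaks and replicate 2 as narrow peaks, so replicate and peak format cannot be told apart. Ranks and widths of E2FA were set against those of RBR only inside a replicate, while the classes of sites below use the peaks of both replicates. No input library and no library from plants without a GFP fusion was among the 7, so a site that any GFP precipitate gives cannot be told apart from a site of either protein. Whole seedlings mix dividing and differentiated cells, and a peak found for both proteins does not show that both were on the same molecule of DNA.

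Overlapping peaks of the 4 lists, with at least 1 bp shared, were merged into 32575 sites on the 5 nuclear chromosomes. Sites with a peak in both E2FA lists and in neither RBR list are called E2FA-only (104 sites), the reverse RBR-only (812 sites), and those with a peak in every list sites in all 4 lists (15013 sites). The remaining 16646 sites had another combination of lists and belong to no class. The classes were set by the presence of peaks alone, and position, sequence and the E2FB and E2FC lists were not used to make them. The 4 lists held between 25897 and 28742 nuclear peaks. The paper gives a read total for each protein, larger for RBR than for E2FA, without naming the replicate. The peak number it gives for E2FA equals that of the replicate 1 list (27771), and its RBR number is nearly that of replicate 1. The totals thus appear to belong to replicate 1, and the part of depth in the results was not tested. With 2 libraries per protein, the smallest two-sided p of an exact permutation test is 0.333, so no difference between the proteins was tested for significance. The 95% intervals given for shares (exact, Clopper-Pearson) cover counting error over sites only, and sites are not replicates of a protein.

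E2F transcription factors bind DNA as dimers with a DP protein and recognise short GC-rich words in the promoters of genes for DNA replication and cell cycle progression. RBR does not read DNA sequence by itself. It binds the activation domain of E2Fs and turns the complex into a repressor, and its phosphorylation by cyclin-dependent kinases releases the E2F. The comparison asks where both proteins were found and where 1 of them was found in both replicates without the other.

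The sequences at the sites are shown first because the share of sites with an E2F word, defined next, differed between the classes. Most sites of each class held none in the window read. The windows centred on an E2F word were picked because they hold it. An E2F word here means TTTCCCGC, TTTCGCGC, TTTGCCGC or TTTGGCGC on either strand, and the windows are read from the TAIR10.1 genome in the direction of the named gene, with E2F words in capitals. Of the 104 E2FA-only sites, 26 held such a word in the 200 bp around the E2FA summit of replicate 2, and 4 of the sites with the highest ranks follow. They lie at AT3G24000, which encodes a tetratricopeptide repeat-like protein (chr3:8672739-8672838, plus strand), at OPT2, an oligopeptide transporter (chr1:3230234-3230333, minus strand), at AT3G20760, annotated as the Nse4 component of the Smc5/6 DNA repair complex (chr3:7258962-7259061, minus strand), and at AT5G18720, a DNAJ domain protein (chr5:6243869-6243968, plus strand).
AT3G24000: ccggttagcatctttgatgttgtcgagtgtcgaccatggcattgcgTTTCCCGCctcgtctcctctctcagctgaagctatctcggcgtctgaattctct
OPT2: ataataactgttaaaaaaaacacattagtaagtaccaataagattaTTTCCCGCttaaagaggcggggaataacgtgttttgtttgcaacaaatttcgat
AT3G20760: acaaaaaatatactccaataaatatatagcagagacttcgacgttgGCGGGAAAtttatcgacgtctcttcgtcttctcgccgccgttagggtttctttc
AT5G18720: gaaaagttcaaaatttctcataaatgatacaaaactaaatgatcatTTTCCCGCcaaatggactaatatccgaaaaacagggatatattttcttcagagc

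Of the 8 sites in all 4 lists with the largest rank difference toward E2FA, 2 held an E2F word at the E2FA summit and are shown. They are at TOP1ALPHA, DNA topoisomerase I alpha, which relaxes supercoiled DNA (chr5:22429538-22429637, minus strand), and AT4G35130, another tetratricopeptide repeat-like gene (chr4:16723532-16723631, minus strand). The E2F words lay 5 and 15 bp from the E2FA summits.
TOP1ALPHA: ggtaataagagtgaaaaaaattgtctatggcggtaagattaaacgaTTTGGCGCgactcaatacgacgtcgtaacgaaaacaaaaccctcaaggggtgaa
AT4G35130: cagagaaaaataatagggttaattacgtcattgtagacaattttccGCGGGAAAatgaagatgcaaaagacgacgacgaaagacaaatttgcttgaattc

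Among the sites in all 4 lists with the highest ranks were RBR1 itself (chr3:3919096-3919195, minus strand), RNR1, the large subunit of ribonucleotide reductase, which makes deoxyribonucleotides (chr2:9293225-9293324, plus strand), and MCM2, a subunit of the replicative helicase (chr1:16970154-16970253, plus strand). The RBR1 window held 2 E2F words. The other 7 of the 10 highest were nearest to EXL3, AT3G03035, KICP-02, CIP1, AT2G39865, AT4G16970 and AT4G39240, and 8 of the 10 held an E2F word at the E2FA summit.
RBR1: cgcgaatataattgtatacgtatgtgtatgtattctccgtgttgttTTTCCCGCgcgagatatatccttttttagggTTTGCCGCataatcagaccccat
RNR1: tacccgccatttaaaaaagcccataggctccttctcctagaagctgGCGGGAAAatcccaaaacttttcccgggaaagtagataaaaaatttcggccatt
MCM2: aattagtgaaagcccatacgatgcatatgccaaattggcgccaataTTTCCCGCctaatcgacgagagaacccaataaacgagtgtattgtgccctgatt

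None of the 812 RBR-only sites had an E2F word in the 200 bp around the RBR summit of replicate 2. Windows centred on the RBR summit are shown for UPS2, ureide permease 2 (chr2:1071431-1071530, plus strand), and for PSF3, a subunit of the GINS complex of the replicative helicase (chr1:6584120-6584219, plus strand). The third is a site in all 4 lists that ranked far higher for RBR, at the tRNA-Arg gene AT2G45020 (chr2:18569829-18569928, plus strand). In the PSF3 window the capitals mark the site II word TGGGCC on either strand, and the other windows are in lower case because neither word occurs there.
UPS2: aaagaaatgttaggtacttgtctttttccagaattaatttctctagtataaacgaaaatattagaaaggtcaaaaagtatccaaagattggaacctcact
PSF3: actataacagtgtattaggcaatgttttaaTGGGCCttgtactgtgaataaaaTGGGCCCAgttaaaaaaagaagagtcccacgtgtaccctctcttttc
AT2G45020: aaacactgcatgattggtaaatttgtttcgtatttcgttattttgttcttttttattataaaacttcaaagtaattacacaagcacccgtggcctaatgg

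E2FA and RBR shared most of their peaks in each replicate. In replicate 1, 79.9% of 27771 E2FA peaks (79.4 to 80.4%) overlapped an RBR peak and 87.4% of 27090 RBR peaks (87.0 to 87.8%) overlapped an E2FA peak. In replicate 2 the order was the other way round, with 95.8% of 25897 E2FA peaks (95.6 to 96.1%) and 73.9% of 28742 RBR peaks (73.4 to 74.4%). Which of the proteins had the larger unshared part therefore differed between the replicates. The lists also ended at unlike q-values. The lowest −log10 q-values were 1.03 for E2FA and 1.05 for RBR in replicate 1, and 1.67 and 1.33 in replicate 2. The RBR list of replicate 2 thus reached weaker peaks than the E2FA list beside it, and the part of this in the overlap was not tested. In every list the overlap was highest among the peaks with the highest fold enrichment, the authors' ratio over the local background of the same library. In the highest of 10 equal parts of a list, 98.8% of E2FA peaks and 100% of RBR peaks were shared in replicate 1, and 99.3% and 100% in replicate 2. In the lowest part these shares were 58.1% and 59.4% in replicate 1 and 84.8% and 18.8% in replicate 2.

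**Figure D1:**
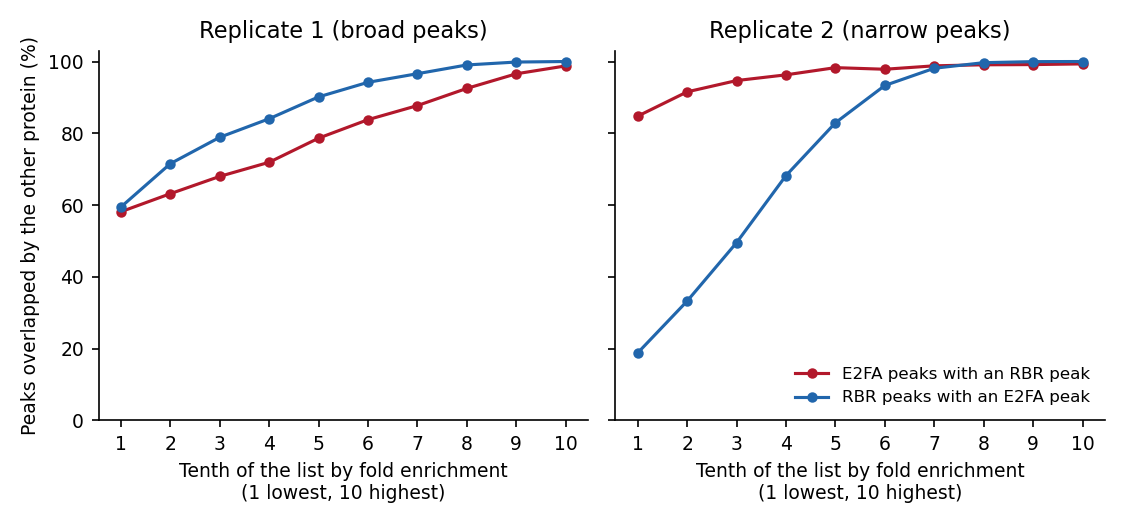
Share of peaks overlapped by the other protein (y axis, %) in 10 equal parts of each list ordered by fold enrichment (x axis, 1 lowest), for E2FA peaks (red) and RBR peaks (blue) in replicate 1 (left) and replicate 2 (right). All lines end between 98.8 and 100% in the highest part, and the lowest part of RBR peaks in replicate 2 was shared at 18.8%.

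Peaks of 1 protein without the other in a single replicate were followed into the other replicate. Of the 5576 E2FA peaks of replicate 1 without RBR, 352 (6.31%) overlapped an E2FA peak of replicate 2, while 608 (10.9%) overlapped an RBR peak of replicate 2. Of the 1084 E2FA peaks of replicate 2 without RBR, 571 (52.7%) met E2FA and 491 (45.3%) met RBR in replicate 1. RBR peaks without E2FA recurred more often, with 2701 of 3420 (79.0%) meeting RBR in the other replicate when taken from replicate 1 and 4910 of 7497 (65.5%) when taken from replicate 2. Here too many met the other protein, 1851 (54.1%) and 4385 (58.5%). Those that met their own protein and not the other numbered 108 and 179 for the E2FA peaks of replicates 1 and 2, and 904 and 1099 for the RBR peaks.

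The 15013 sites in all 4 lists made up 46.1% of all sites (45.5 to 46.6%), and 14750 of them held at least 1 bp common to the 4 lists, with a median common stretch of 431 bp. The E2FA-only class was 0.668% of the 15577 sites with E2FA in both replicates, and the RBR-only class was 4.13% of the 19666 sites with RBR in both. Beside these stand the mixed combinations, with 1 protein in replicate 1 and the other in replicate 2. There were 297 sites with E2FA in replicate 1 and RBR in replicate 2 and nothing else, more than the 104 E2FA-only sites, and 51 with RBR in replicate 1 and E2FA in replicate 2. The 812 RBR-only sites outnumbered both mixed kinds. The E2FA-only count depended on how lists were cut and sites built, with 252 sites from the top 15000 peaks of each list and 179 with replicate 2 peaks as anchors, where the RBR-only counts were 619 and 1099.

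**Figure D2:**
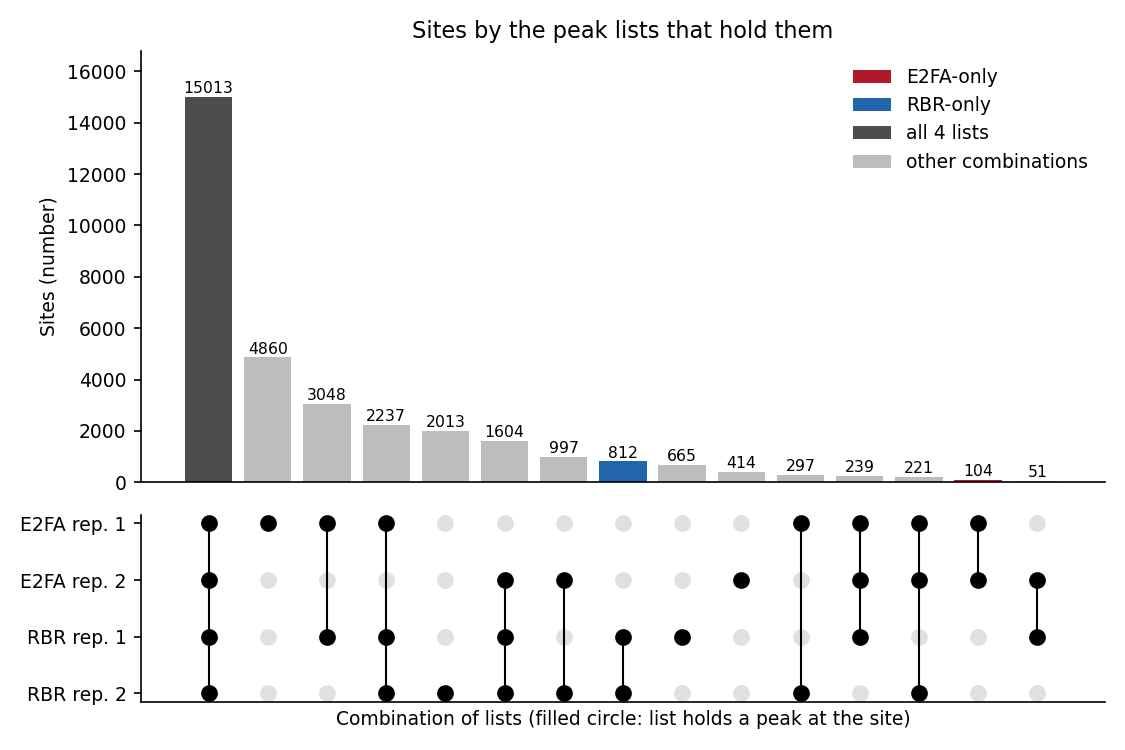
Number of sites (y axis) for each of the 15 combinations of lists, which the filled circles below name. The 15013 sites in all 4 lists (dark grey) exceed the 812 RBR-only sites (blue), the 297 sites of the larger mixed combination and the 104 E2FA-only sites (red).

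Exclusive sites were weak and narrow in their own lists. A rank here is the percentage of peaks of the same list with a lower fold enrichment. E2FA-only sites had a median rank of 24.7 in replicate 1 (quartiles 10.9 and 38.2) and 30.8 in replicate 2 (14.4 and 51.2). RBR-only sites had medians of 16.0 (6.29 and 31.6) and 19.4 (8.79 and 33.1). Sites in all 4 lists stood at 61.4 and 62.8 for E2FA and at 68.2 and 69.7 for RBR. Sites in the upper part of their list, at a rank of 50 or more, numbered 16 and 28 of the 104 E2FA-only sites and 75 and 40 of the 812 RBR-only sites. Median peak widths were 317.5 and 276 bp at E2FA-only sites, against 610 and 438 bp over the whole E2FA lists, and 243 and 348.5 bp at RBR-only sites, against 508 and 567 bp over the whole RBR lists. These contrasts are not free of the class rule, because a wide peak meets other peaks more readily than a narrow one. The highest peak stood for a list at a site, and 9229 of the 15013 sites in all 4 lists had exactly 1 peak in each list. How much of the contrast in rank and width comes from this was not tested. The other protein was seldom just outside the site. The nearest RBR peak of either replicate lay a median of 1174 bp from E2FA-only sites, within 250 bp at 6 of 104, and the nearest E2FA peak lay 1175.5 bp from RBR-only sites, within 250 bp at 59 of 812.

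E2FA-only sites lay upstream of genes about as often as sites in all 4 lists, but less tightly on the start site. With the summit of replicate 2 as the position, 42 of 104 (40.4%, 30.9 to 50.5%) were within 1000 bp upstream of the nearest transcription start site (TSS), against 6586 of 15013 sites in all 4 lists (43.9%, 43.1 to 44.7%) and 280 of 812 RBR-only sites at the RBR summit (34.5%, 31.2 to 37.9%). The TSS was a median of 543.5 bp away at E2FA-only sites, 451 bp at RBR-only sites and 166 bp at the E2FA summits of sites in all 4 lists. Coding sequence held 12.5% of E2FA-only summits, 7.88% of RBR-only summits and 3.62% of the E2FA summits in all 4 lists, while it makes up 28.3% of the genome. Sites farther than 1000 bp from any gene (distal intergenic) made up 14.4% (8.30 to 22.7%), 2.96% and 7.83% in the same order, against 11.04% of the genome and 16.1% and 10.4% of all E2FA peaks in replicates 1 and 2. The E2FA-only share was thus near these backgrounds, and the RBR-only share was below the 13.5% and 10.5% of all RBR peaks. The nearest gene was annotated as a pseudogene that is not transcribed at 8 of 104 E2FA-only sites (7.69%), at 20 of 812 RBR-only sites (2.46%) and at 143 of the sites in all 4 lists (0.953%), with 4.11% and 0.977% over all E2FA peaks of replicates 1 and 2.

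RBR-only sites stood out by their place at the ends of genes. In all, 327 of 812 RBR summits (40.3%) lay within 200 bp of the annotated end of a protein-coding gene, against 17.2% of the RBR summits at sites in all 4 lists and 18.6% over all RBR peaks of replicate 2. The midpoints of replicate 1, a separate library, gave 43.5% against 16.7% and 17.5%. A 3′ UTR held 168 RBR-only summits (20.7%, 18.0 to 23.6%), 1 of 104 E2FA-only summits and 1044 RBR summits (6.95%) of sites in all 4 lists, and 3′ UTRs make up 5.74% of the genome. Of these 168, 37 had an annotated TSS of any gene within 500 bp and 114 had none within 1000 bp. Sites of like rank gave lower values. Among 802 sites in all 4 lists whose mean RBR rank fell between the quartiles of the RBR-only class (11.9 and 29.1), a comparison added after the values were seen, 20.7% were within 200 bp of a gene end and 9.35% in a 3′ UTR. A place at gene ends was common to all combinations without the E2FA list of replicate 1, however. It ranged from 22.0% to 45.1% in the 7 combinations without that list and from 7.22% to 17.1% in the 8 combinations with it. It was 41.4% at the 1604 sites that had E2FA in replicate 2 and RBR in both. These positions were replicate 2 summits where a combination had a peak of replicate 2, and replicate 1 midpoints otherwise. The 7.22% was read at midpoints, and the lowest value at summits with that list was 12.5%. The share at gene ends thus moved with that 1 library, whose peaks lay there in 14.1% of cases over the whole list, and its part in the result was not tested.

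The share of sites with an E2F word also differed between E2FA-only and RBR-only sites, though most sites of both classes had none. The word was present at 26 of 104 E2FA-only summits (25%, 17.0 to 34.4%) and in 0.481% of windows 600 bp to each side. At RBR-only summits it was present at 0 of 812, which allows a share of up to 0.369% by a limit of 3 counts and 0.453% by the exact interval, with 0.554% in the flanks. The midpoints of replicate 1 gave 22 of 104 (21.2%) and 1 of 812 (0.123%). Sites in all 4 lists held the word at 4.36% of E2FA summits (4.04 to 4.70%) and at 2.94% of RBR summits, with 0.706% and 0.773% in the flanks, and the same windows at the TSS of all 27444 protein-coding genes held it in 1.38%. Among 3037 sites in all 4 lists with mean E2FA ranks between 17.4 and 39.7, the quartiles of the E2FA-only class, a comparison likewise added after the values were seen, the word was present in 0.79%. The share was 15.5% of 239 sites with both E2FA lists and RBR in replicate 1 only, 6.79% of 221 sites with both and RBR in replicate 2 only, and 13.3% of 414 sites found in the E2FA list of replicate 2 alone. It was 1.46% at the midpoints of the 4860 sites found in the E2FA list of replicate 1 alone. Their windows had a median GC content of 22.5%, against 30.5% at the replicate 1 midpoints of E2FA-only sites and 34.3% at their summits. Low shares were not particular to RBR-only sites. With RBR in both replicates, the word was present at 2 of 2237 sites with E2FA in replicate 1 only (0.0894%). It was present at 16 of 1604 with E2FA in replicate 2 only (0.998%). Sites with E2FA in replicate 1 and RBR in replicate 2 had it at 0 of 297, and sites with both proteins in replicate 2 alone at 3.11% of 997. A match to these letters is a description of the window and no evidence that a protein sits on it.

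Where both summits had the word in their window, it lay nearer to the E2FA summit. This was so at 279 of 415 sites in all 4 lists (67.2%), and the RBR summit was nearer at 125 (30.1%). The median distance from word to summit was 18 bp for E2FA and 32 bp for RBR. The site II word TGGGCC, found in promoters of many housekeeping genes and in 11.6% of the TSS windows, was present at 8.65% of E2FA-only, 15.4% of RBR-only and 15.7% of all-4 summits of E2FA (18.9% of RBR). The G-box CACGTG, which is read by bZIP and bHLH factors, was present at 2.88%, 4.68% and 10.6% (E2FA summits), against 5.72% of TSS windows.

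The lists of the other E2Fs, which played no part in the classes, treated them differently. E2FB peaks were present at 74 and 72 of the 104 E2FA-only sites in E2FB replicates 1 and 2 (71.2% and 69.2%), at 25.5% and 47.9% of RBR-only sites and at 97.2% and 97.1% of sites in all 4 lists. Over all 32575 sites these shares were 67.3% and 62.1%, and over the lower-ranked E2FA peaks of replicate 2 75.01% and 84.3%, so the E2FA-only shares lay near or below these backgrounds. Lower-ranked RBR peaks of replicate 2 had 62.2% and 65.4%, above the RBR-only shares. Overlap was counted over the whole merged site, with median widths of 417.5, 396.5 and 1162 bp in the 3 classes. Wide sites have more room for an overlap, and the part of width was not tested. E2FC, with replicate 1 only, had peaks at 67.3% of E2FA-only sites (57.4 to 76.2%), at 2.09% of RBR-only sites (1.22 to 3.33%) and at 73.3% of sites in all 4 lists, against 59.0% of all sites. Among lower-ranked peaks of replicate 2, the E2FC share was 39.5% for E2FA and 37.2% for RBR. At least 1 of the 3 lists held a peak at 94 of 104 E2FA-only sites and at 464 of 812 RBR-only sites. The E2FC values followed the E2FA list of replicate 1 across all combinations. They ran from 50.7% to 81.7% in the 8 combinations with that list and from 2.09% to 7.84% in the 7 without it, and the 665 sites found in RBR replicate 1 alone had 2.71%. E2FC was measured in the same replicate and peak format, and whether the shared replicate or the protein gives this cannot be told apart here. The E2FB values of replicate 2, from another replicate and format, were 69.2% against 47.9%. Each lay below its background of lower-ranked peaks of the same protein, 84.3% for E2FA and 65.4% for RBR.

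**Figure D3:**
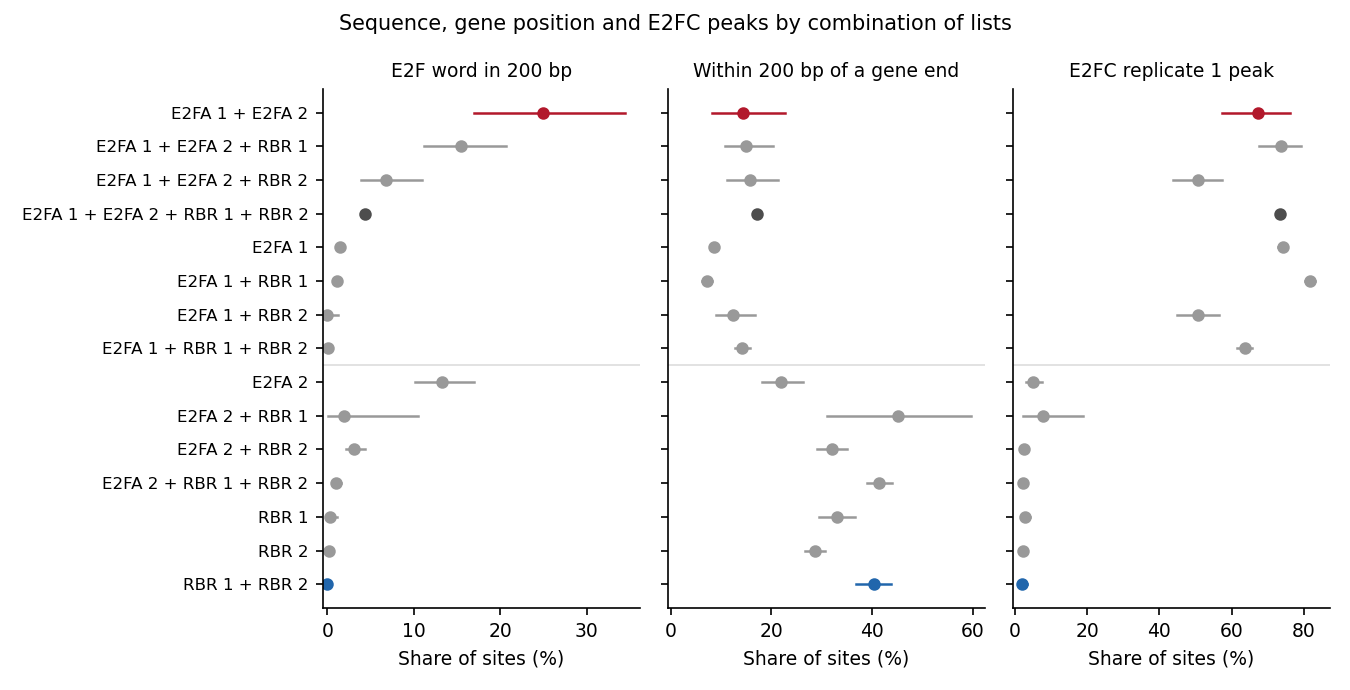
Share of sites (x axis, %) with an E2F word in 200 bp (left), within 200 bp of the end of a protein-coding gene (middle) and with an E2FC peak (right), for the 15 combinations of lists (rows; the numbers 1 and 2 are replicates), with exact 95% intervals as bars. Rows above the grey line include the E2FA list of replicate 1, where E2FC shares are 50.7 to 81.7%, and E2FA-only sites (red) have the highest share of E2F words, 25%. Words and gene ends were read at replicate 2 summits, or at replicate 1 midpoints in rows without a replicate 2 list.

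The E2FA-only sites with the highest mean rank were at AT3G24000, AT3G28350, RPS1, AT5G27705, OPT2, AT2G36570, AT5G55900, AT5G27870, AT3G20760 and AT5G18720. At AT3G24000 the E2FA peaks had fold enrichments of 1.83 in replicate 1 and 7.40 in replicate 2, ranks of 51.9 and 97.5, and the summit lay 50 bp downstream of the TSS in the 5′ UTR. The nearest RBR peaks were 4148 and 3852 bp away, so this was a strong E2FA site in replicate 2 with no RBR peak near it in either replicate. RPS1, which encodes ribosomal protein S1, had ranks of 79.4 and 59.3 with RBR peaks no nearer than 3188 bp. OPT2 had ranks of 60.1 and 72.6 with its summit at -11 bp from the TSS, and an RBR peak of replicate 1 began 412 bp away. AT3G28350 and AT5G27705 are annotated as pseudogenes. An E2F word was present at 7 of these 10 sites. All 10 had peaks in both E2FB lists and 9 had one in the E2FC list, the exception being AT5G18720.

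The top RBR-only sites were weaker. They were at RPP5, F8H, AT1G51745, UPS2, AT1G28570, AT4G30993, AT5G56370, AT3G59310, AT5G10965 and AT4G11230. RPP5, a disease resistance gene of the TIR-NBS-LRR class, had RBR fold enrichments of 1.90 and 2.92 and ranks of 69.2 and 45.7, with E2FA peaks 6215 and 332 bp away in the 2 replicates. AT1G51745, which encodes a protein with a Tudor/PWWP/MBT domain, had ranks of 51.3 and 59.8 and its nearest E2FA peaks were 5907 and 6351 bp away. At AT5G56370, an F-box protein gene, the ranks were 80.5 and 27.1, so the site was high in replicate 1 and low in replicate 2. None of the 10 sites held an E2F word or an E2FC peak, 4 had peaks in both E2FB lists, and 3 had none in either.

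Near genes the exclusive classes were small. Within 500 bp of the TSS, an E2FA-only summit was found at 44 of 27444 protein-coding genes (0.16%), an RBR-only summit at 371 (1.35%) and the E2FA summit of a site in all 4 lists at 10433 (38%). Of 11 lists of genes for replication, the cell cycle, repair, photosynthesis and development (364 entries), none had a member with an E2FA-only site and 1 gene had an RBR-only site. This was PSF3, at chr1:6584044-6584386, with RBR fold enrichments of 1.39 and 2.48 and ranks of 3.59 and 31.9, and with peaks in both E2FB lists. Sites in all 4 lists were found at 21 of 23 replication licensing and helicase genes, 23 of 25 DNA synthesis and chromatin assembly genes, 20 of 24 DNA damage and repair genes and 24 of 34 photosynthesis genes, against 7 of 17 stomatal lineage, 24 of 63 auxin response, 23 of 67 WRKY and 3 of 19 embryo and seed maturation genes.

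At sites in all 4 lists, the proteins were compared by the difference of their ranks in the same replicate (E2FA minus RBR). The median difference was -5.15 percentile points in replicate 1 and -7.17 in replicate 2, below 0 in both. In replicate 1, 1081 of 15013 sites ranked at least 25 points higher for E2FA (7.2%) and 2732 higher for RBR (18.2%). In replicate 2 these were 993 (6.61%) and 2526 (16.8%). Both replicates gave the same call at 268 sites for E2FA (1.79%) and at 662 for RBR (4.41%), and opposite calls at 196 and 63 sites. With a limit of 10 points these counts were 984 and 3252, and with 40 points 56 and 70. Of the sites called for E2FA in replicate 1, 52.4% were above 0 in replicate 2, against 32.3% of all sites. Of those called for RBR, 78.7% were below 0, against 67.7%. Across the 15013 sites, which share libraries and are not independent, the differences of the 2 replicates had a Pearson r of 0.24 and a Spearman rho of 0.23. Ranks of E2FA and RBR in the same replicate correlated more closely (r = 0.68 and 0.69) than ranks of the same protein in both replicates (r = 0.46 for E2FA and 0.53 for RBR).

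**Figure D4:**
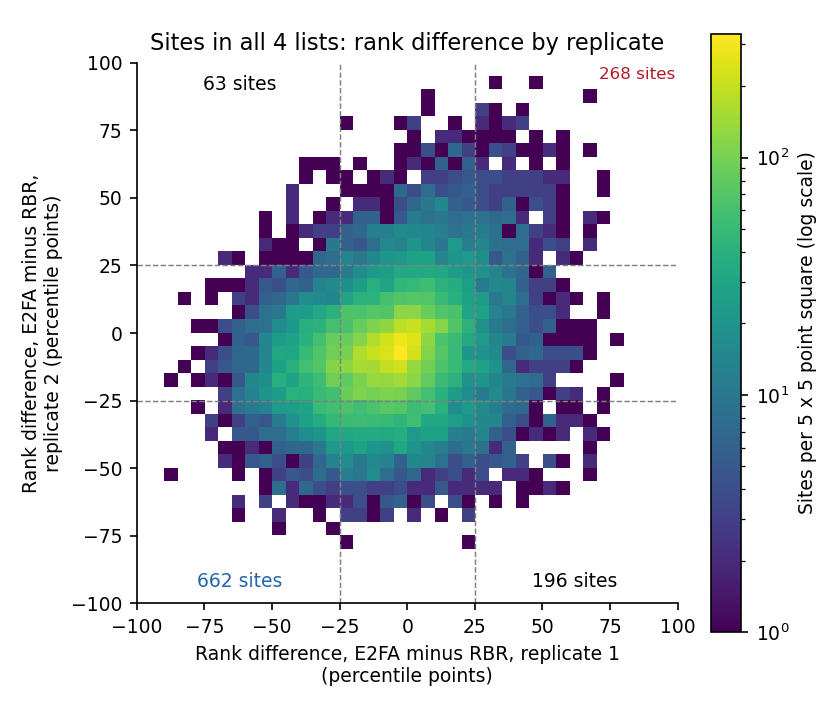
Rank difference, E2FA minus RBR, at the 15013 sites in all 4 lists in replicate 1 (x axis) and replicate 2 (y axis), in percentile points, with colour giving the number of sites per square on a log scale and dashed lines at 25 points. The upper right corner holds 268 sites higher for E2FA in both replicates and the lower left 662 higher for RBR, and the other corners hold 63 and 196 sites.

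The sites on which both replicates agreed differed in sequence, which the ranks did not use. An E2F word was present at 61 of 268 E2FA summits where E2FA ranked higher (22.8%, 17.9 to 28.3%) and at 46 RBR summits (17.2%), against 0 of 662 E2FA summits (which allows up to 0.453% by a limit of 3 counts and 0.556% by the exact interval) and 1 RBR summit (0.151%) where RBR ranked higher. In 5 equal groups of the rank difference, the share of E2F words went from 0.633% in the group most toward RBR to 8.96% in the group most toward E2FA in replicate 1, and from 0.30% to 12.2% in replicate 2. Both replicates gave the same order over the 5 steps. The groups also differ in E2FA rank. Its medians in replicates 1 and 2 were 76.2 and 90.8 where E2FA ranked higher, and 25.9 and 29.2 where RBR did. The part of E2FA rank in the share of words was not tested. E2FC peaks were present in 38.7% of the lowest and 93.0% of the highest group of replicate 1, and in 63.8% and 80.2% in replicate 2. The 5′ UTR held 40.3% of E2FA summits where E2FA ranked higher, 25.1% where RBR did and 27.5% over all sites in all 4 lists. Peaks in both E2FB lists were present at 268 of 268 and at 600 of 662 sites (90.6%), against 94.9% over all sites in all 4 lists.

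The sites with the largest agreed difference toward E2FA were at AT4G03105, TOP1ALPHA, AT4G35130, KT5, CSN6B, AT1G28323, UBP26 and EDD1. TOP1ALPHA had E2FA ranks of 65.9 and 94.6 and RBR ranks of 0.140 and 8.79, with fold enrichments of 1.99 and 5.55 for E2FA and 1.32 and 1.86 for RBR. AT4G35130 had E2FA ranks of 82.6 and 95.05 and RBR ranks of 24.8 and 23.5. The E2FA ranks lay above the RBR ranks in both replicates at each. The other 6 sites had no E2F word in the window, among them those at KT5, a potassium transporter, CSN6B, a subunit of the COP9 signalosome, UBP26, a ubiquitin-specific protease, and EDD1, a glycine-tRNA ligase. All 8 sites had peaks in both E2FB lists and in the E2FC list.

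The largest agreed differences toward RBR were at AT2G45020, AT1G05675, NAS4, RLP18, AT5G55530, AT4G11521, AT1G67880 and VFB2. At AT2G45020, a tRNA-Arg gene, the RBR ranks were 75.4 and 66.8 and the E2FA ranks 13.8 and 1.46. At NAS4, which encodes a nicotianamine synthase of metal transport, the RBR ranks were 87.0 and 74.7 and the E2FA ranks 26.7 and 11.1, at an E2FA summit -3164 bp from the TSS. VFB2, an F-box protein gene, had RBR ranks of 52.9 and 74.1 against E2FA ranks of 2.25 and 21.1. None of the 8 had an E2F word, and 2 had an E2FC peak.

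Genes of DNA replication ranked higher for E2FA. In the list of replication licensing and helicase genes, E2FA stood above RBR in both replicates at 21 of the 21 genes with a site in all 4 lists within 500 bp of the TSS, with median differences of 12.6 and 6.19 points. This share was 2165 of 10433 (20.8%) over all protein-coding genes with such a site, whose median differences were -4.40 and -6.22. Of the 23 DNA synthesis and chromatin assembly genes, 17 were above in both and 3 below in both, with medians of 6.43 and 3.71, and of 20 DNA damage and repair genes 16 were above and 1 below, with medians of 9.22 and 5.17. Near the top of the lists a rank can differ by little, which limits the difference at the strongest sites. MCM2 had ranks of 99.7 and 98.3 for E2FA and RBR in replicate 1 and 99.97 and 99.73 in replicate 2. Its fold enrichments in replicate 2 were 31.3 and 8.78, which are not on a common scale across lists. ORC2, of the origin recognition complex, had E2FA ranks of 83.7 and 98.4 and RBR ranks of 29.7 and 65.9. SLD5, another GINS subunit, had E2FA ranks of 95.2 and 98.5 and RBR ranks of 84.5 and 34.3. An E2F word was present at 14 of the 21 replication licensing genes, 12 of the 23 DNA synthesis genes and 6 of the 20 repair genes, against 547 of all 10433. How the E2F words and the difference in rank relate gene by gene was not tested.

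Some other lists leaned the other way. RBR stood above E2FA in both replicates at 16 of 20 light signalling and circadian clock genes, with medians of -10.2 and -11.6 points, and E2FA did at 2. At WRKY genes this was 17 of 23 against 0, and at auxin response genes 15 of 24 against 2, while over all protein-coding genes with a site RBR stood above in both at 45.2%. Photosynthesis genes had 11 of 24 for RBR (45.8%), near the share over all protein-coding genes, and 3 for E2FA. Mitosis and cytokinesis genes were mixed, with 9 of 22 for E2FA and 6 for RBR and medians of -0.35 and 9.09, which differ in sign between the replicates. G1 to S control genes had 7 of 18 for E2FA and 4 for RBR.

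**Figure D5:**
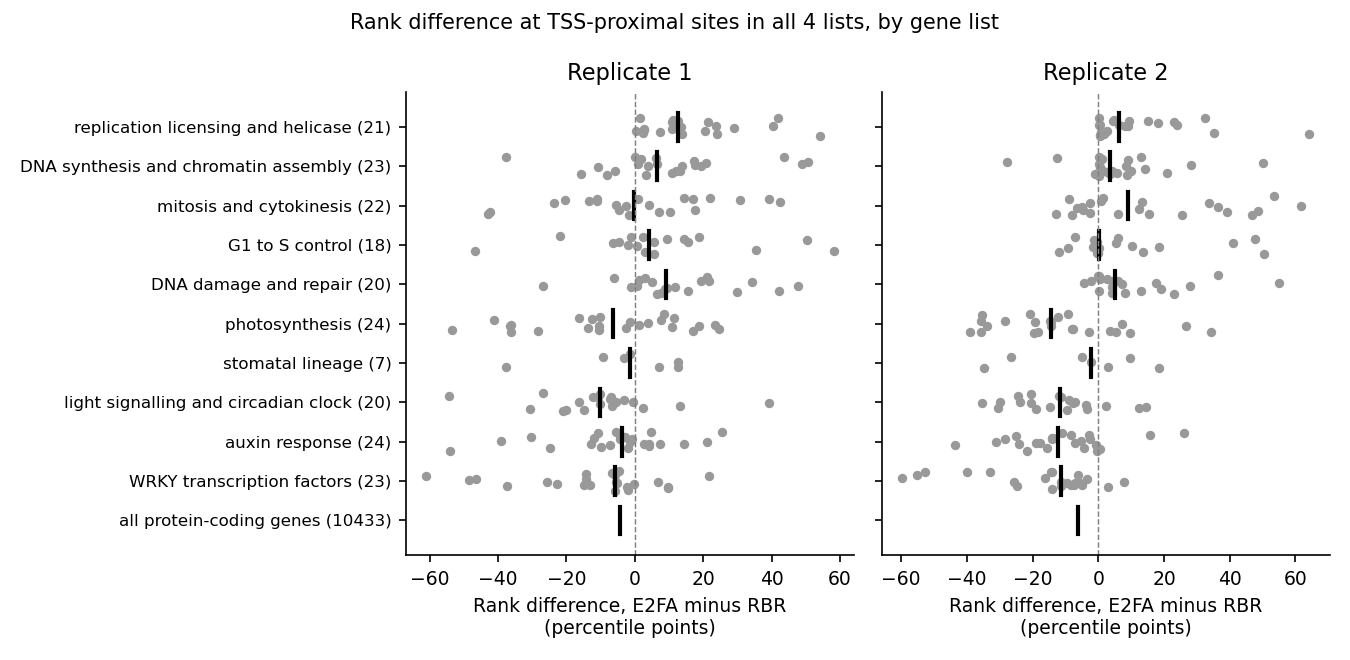
Rank difference, E2FA minus RBR, in percentile points (x axis) at genes with a site in all 4 lists within 500 bp of the TSS, by gene list (rows, with the number of genes), in replicate 1 (left) and replicate 2 (right); grey points are genes and black bars medians, with only the median drawn for all 10433 protein-coding genes. All 21 replication licensing and helicase genes lie right of 0 in both replicates, and the medians of the light signalling list lie at -10.2 and -11.6.

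A difference of at least 25 points in both replicates was rarer. Such a site toward E2FA lay within 500 bp of the TSS of 239 protein-coding genes (0.871%) and one toward RBR at 462 (1.68%). Toward E2FA, genes of the lists with one, named here after their values were seen, included ORC1A and ORC2, POLD2, a subunit of DNA polymerase delta, RFC5, of the clamp loader, CYCB2;1, a B-type cyclin, KRP3, an inhibitor of cyclin-dependent kinases, DEL2, an atypical E2F, and E2FB. KRP3 had E2FA ranks of 91.2 and 93.5 and RBR ranks of 33.0 and 45.7. POLD2 had E2FA ranks of 93.6 and 97.1 and RBR ranks of 44.7 and 46.8. Toward RBR, 6 genes had one, namely TIL1, the catalytic subunit of DNA polymerase epsilon, LHCB1.4, a light-harvesting protein, PHYE, a phytochrome, PRR3, of the circadian clock, IAA10, a repressor of auxin response, and WRKY27.

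The genes of the E2F, DP and RBR proteins named below had peaks of both proteins, at DPB in replicate 1 only. The difference in rank varied from gene to gene, and at some genes between the replicates. At E2FB the site (chr5:7359930-7360789) had its E2FA summit at -91 bp from the TSS, and the E2FA ranks were 83.8 and 91.7 against RBR ranks of 33.5 and 41.2. At E2FC the ranks were 92.6 and 98.9 for E2FA and 77.0 and 98.8 for RBR, so the proteins differed in replicate 1 and hardly in replicate 2. At DPA they were 98.7 and 98.7 against 93.3 and 99.1, with opposite order in the replicates. DPB had no site in all 4 lists near its TSS, only peaks of replicate 1 with ranks of 6.43 for E2FA and 7.69 for RBR.

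The genes of the 2 tagged proteins differed in the width of their peaks. At E2FA (AT2G36010, chr2:15119516-15123184), the E2FA-GFP peaks were 3658 and 4307 bp wide and covered 75.9% of the gene in replicate 1 and more in replicate 2, while the RBR-GFP peaks were 347 and 678 bp wide and covered 4.12% and 8.34%. At RBR1 (AT3G12280, chr3:3913349-3919359), the RBR-GFP peaks were 5941 and 6255 bp wide and covered 94.2% and 95.03% of the gene, while the E2FA-GFP peaks were 776 and 1514 bp wide and covered 9.05% and 17.5%. In both replicates each line had the wide peak over the gene that its own transgene encodes. Each line carries its gene in the transgene as well as at its own locus, and the part of these added copies in the peaks was not tested. The fold enrichments at RBR1 were 3.98 and 35.6 for E2FA and 2.71 and 34.8 for RBR.

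Widths elsewhere did not separate the proteins in the same way in both replicates. At the 9229 sites with exactly 1 peak in each list, median widths were 554 bp for E2FA and 531 bp for RBR in replicate 1, with E2FA wider at 49.1% of sites. In replicate 2 they were 488 and 668 bp, and RBR was wider at 84.2%. The positions of the proteins lay a median of 51 bp apart in both replicates, over midpoints in replicate 1 and summits in replicate 2, and farther than 200 bp at 10.8% and 8.92% of sites. Near a TSS, RBR lay downstream of E2FA at 61.8% of sites in replicate 1 (median 20 bp) and at 47.4% in replicate 2 (median -3 bp), which is no common direction.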

How the data were processed

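The data were 4 peak lists from whole seedlings, with the E2FB and E2FC lists read for overlap only. Per the submitters' processing notes, the authors trimmed reads (Trimmomatic 0.38), mapped them to TAIR10 (Bowtie2 2.3.5, SAMtools 1.9) and called peaks in each library (MACS2 2.2.7.1). The paper names a later SAMtools version. A control library for peak calling and separate settings for replicate 2 are not given in the sources used here. In the deposited lists the authors give fold enrichment, a ratio over local background, and the p-value and q-value of each peak as −log10 values. The score column of the deposited lists was not used. Replicate 1 values are means over a broad peak, and replicate 2 values belong to the summit. The lists hold no read depth, and read depth was not analysed here.

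Nuclear peaks were merged by an overlap of 1 bp, and the peak of highest fold enrichment stood for a list at a site. Ranks were taken within a list, because fold enrichment is not on a common scale across lists. Genes, UTRs and sequence came from RefSeq TAIR10.1 (37899 genes, of which 27444 protein-coding), which has the nuclear chromosomes of TAIR10. A site counted as upstream within 1000 bp of the nearest TSS. Of the gene list symbols, 10 matched no single gene and were left out. Computations used Python 3.11.15, scipy 1.17.1, pandas 2.3.3, numpy 2.4.6 and matplotlib 3.10.9. On simulated lists, 150 of 150 planted E2FA-only and 400 of 400 planted RBR-only sites were recovered. Peaks of the same planted site always overlapped, and planted sites lay too far apart for neighbours to meet. This recovery thus checks the code only and says nothing on the class counts in the real lists. The members and lists were chosen with earlier results of these data known.

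Named genes were those nearest to the 10 E2FA-only, RBR-only and all-4 sites of highest mean rank, to the 8 sites of each direction with the largest rank difference in the lesser replicate, the E2F, DP and RBR genes, and listed genes with an exclusive site within 500 bp of the TSS. Alternatives varied overlap, joining distance, q-value, list length, anchors, window, gene set, position, rank measure, threshold, motif and replicate.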

Additional observations from a re-analysis of the deposited data

Results flagged for a closer look

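Peaks on the organelle genomes were left out of every comparison, and the deposited lists held 51 of them for E2FA replicate 1, 25 for E2FA replicate 2, 4 for RBR replicate 1 and 97 for RBR replicate 2. The number was higher for E2FA in replicate 1 and higher for RBR in replicate 2. They are listed because they are signal outside the nuclear sites, with no untagged library to set them against.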

How the results depend on the processing

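The counts of the 3 classes stayed within 1.5 times when a larger share of the shorter peak had to overlap, when peaks within 250 bp were joined and when only peaks with a q-value under 0.01 were kept (94 to 115 E2FA-only, 721 to 921 RBR-only and 13866 to 14991 sites in all 4 lists). With the top 15000 peaks of each list, E2FA-only sites rose to 252 and sites in all 4 lists fell to 7041, and with replicate 2 peaks as anchors the E2FA-only count was 179. A single replicate gave 1084 to 5576 E2FA-only sites, 3420 to 7497 RBR-only sites and 20966 to 21036 shared sites. Promoter shares of E2FA-only, RBR-only and all-4 sites were 30.8%, 27.5% and 36.1% for 500 bp upstream. Protein-coding genes alone gave 28.4% for RBR-only sites and 42.0% for all 4, the q-value limit gave 38.6% for RBR-only sites, and replicate 1 midpoints gave 59.2% for all 4. Single replicates gave 29.5 to 40.7% for E2FA-only sites, 33.9 to 40.7% for RBR-only sites and 41.9 to 54.8% for shared sites. Sites ranked higher for E2FA numbered 984 at 10 points and 56 at 40 points, those for RBR 3252 and 70, and single replicates gave 993 to 1081 and 2526 to 2732. E2F words at E2FA-only sites were 38.5% with the shorter core, at RBR-only sites 0.616%, and at sites in all 4 lists 8.45% with the core, 5.04% in 400 bp, 3.60% in 100 bp, 2.00% at replicate 1 midpoints and 2.94% at RBR summits, a setting added after the data were seen. Among the 3 classes, in each window, centre and word set run, E2FA-only sites had the highest and RBR-only sites the lowest share of E2F words. The cause of these moves was not tested. No paired analysis was possible because the results are counts and shares of sites that come from no test. Ranks and widths of the proteins were compared inside each replicate, while the classes and the mixed combinations used peaks of both replicates. The absence of input and untagged libraries, read depths that the lists do not hold and the tie of replicate to peak format limit all counts.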
